A study of Mus musculus with 308 samples.

Results

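A set of 10 genes used to recognise intestinal crypt stem cells was followed in mouse jejunum after repeated dosing with fumaric acid esters. They were Lgr5, Olfm4, Ascl2, Smoc2, Tnfrsf19, Axin2, Sox9, Msi1, Bmi1 and Hopx. Every probe set whose only gene symbol is one of these 10 genes was taken, which gave 23 of the 45141 probe sets on the array and 10 of the 17097 genes they name. Of these, 16 were bright enough to be tested, at least 1 for each of the 10 genes, and 7 were not tested. Those 7 were the second probe sets of Lgr5, Axin2, Tnfrsf19 and Msi1 and the third of Ascl2, Tnfrsf19 and Msi1, counted by brightness. The third ones of Ascl2 and Tnfrsf19 were at the lowest array value on all 43 arrays.

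The arrays were made from total RNA of C57Bl/6 mice. Mice of the treatment and vehicle groups received the vehicle 0.8% hydroxypropyl methylcellulose, alone or with drug, daily over 10 days, and jejunum was collected 12 h after dosing ended. The jejunum groups were vehicle (8 mice), dimethyl fumarate (DMF) at 100 mg/kg (6 mice), DMF at 179.2 mg/kg (7 mice), monoethyl fumarate (MEF) as mixed salts of calcium, magnesium and zinc, given at 79.2 mg/kg (7 mice), and DMF at 100 mg/kg together with MEF salts at 79.2 mg/kg (8 mice). A further group of 7 mice is labelled Nav, and the labels do not say what these animals received. The mice's age and sex are not given in the sources used here. The 43 jejunum arrays are part of a series of 308 arrays from 7 tissues.

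The epithelium of the small intestine is renewed from stem cells at the base of the crypts, which lie between Paneth cells and divide under the control of Wnt signals. Lgr5 encodes a receptor for R-spondins, the proteins that strengthen Wnt signalling, and it defines the crypt base columnar stem cell. Ascl2, Axin2, Sox9 and Tnfrsf19 are known targets of Wnt signalling in the crypt, whereas Bmi1 and Hopx were described as marks of slowly dividing reserve cells and are read in many other cells too. DMF and MEF react with thiols and are known to activate the antioxidant transcription factor NRF2.

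Promoter windows from RefSeq (GRCm38.p6) were at hand here for 6 of the 10 genes, with none for Lgr5, Smoc2, Sox9 or Msi1. The 6 genes had 8 windows, each covering the 250 bases before a start site. Tnfrsf19 was the only gene called lower at the high DMF dose that could be searched, so no relation of motif to response is drawn. The 3 windows printed here belong to Tnfrsf19, which was lower at the high DMF dose, and to Axin2, the Wnt target whose level was not called in any comparison. They are given 5′ to 3′ on the gene's strand, and capitals mark a TCF/LEF core, the short word read by the transcription factors of the Wnt pathway.
Tnfrsf19, chr14:61037988-61038237, minus strand: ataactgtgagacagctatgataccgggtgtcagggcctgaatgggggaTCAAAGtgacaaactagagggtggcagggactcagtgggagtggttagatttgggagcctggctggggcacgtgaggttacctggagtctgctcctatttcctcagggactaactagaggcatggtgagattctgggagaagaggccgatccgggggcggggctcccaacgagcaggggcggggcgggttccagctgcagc
Tnfrsf19, second start, chr14:61046856-61047105, minus strand: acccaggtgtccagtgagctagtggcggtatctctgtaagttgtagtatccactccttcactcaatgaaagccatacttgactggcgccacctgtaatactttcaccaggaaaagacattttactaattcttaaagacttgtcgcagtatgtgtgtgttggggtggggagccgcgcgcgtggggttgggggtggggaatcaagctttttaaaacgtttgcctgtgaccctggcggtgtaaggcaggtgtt
Axin2, chr11:108920099-108920348, plus strand: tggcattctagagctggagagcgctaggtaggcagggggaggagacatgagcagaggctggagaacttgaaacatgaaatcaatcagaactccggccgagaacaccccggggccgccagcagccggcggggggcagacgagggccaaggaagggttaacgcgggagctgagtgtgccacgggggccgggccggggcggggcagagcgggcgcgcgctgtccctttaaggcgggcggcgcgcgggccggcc
Both strands were searched for the letters CTTTGA and CTTTGT, and for TGACNNNGC, the core of the antioxidant response element bound by NRF2. CTTTGA was found in 1 of the 8 member windows, at position -201 of the first Tnfrsf19 window on the opposite strand, against 13.8% of all 32851 promoter windows of this length. CTTTGT was in 0 of the 8 windows and in 16.5% of all windows. TGACNNNGC was in 1 member window, that of Bmi1 at position -211, and in 10.2% of all windows.

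Expression values are on the log2 scale. Array medians in jejunum lay between 4.82 and 4.93, and 23.3% of values sat at the lowest value of 2.13, so low levels are compressed. The enterocyte genes Fabp1, Fabp2 and Vil1 had median levels of 13.70, 14.20 and 13.28 in vehicle mice. Genes of the distal small intestine varied widely between arrays labelled jejunum: Fabp6, the ileal bile acid-binding protein, ranged from 7.93 to 13.30 in vehicle mice and from 3.18 to 13.35 at 179.2 mg/kg DMF. The hybridisation controls, added in equal amount to every sample, were between 11.72 and 11.81 on the vehicle arrays and between 11.50 and 11.69 on those of the high DMF dose, with no overlap. They were below the vehicle range on all arrays of DMF at 100 mg/kg (11.55 to 11.67) and of the combination (11.46 to 11.63) as well, and overlapped it or reached it with MEF salts (11.60 to 11.74) and in Nav mice (11.55 to 11.72). The number of arrays limits the precision of all values.

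In jejunum of mice given DMF at 179.2 mg/kg, 4 of the 10 genes were lower than in vehicle mice and none was higher. Lgr5 fell to 39.7% of the vehicle level, Tnfrsf19 to 57.3%, Smoc2 to 67.1% by its brighter probe set and 62.5% by the other, and Sox9 to 80.4% by 1 of its 3 tested probe sets. These are 5 of 16 member probe sets, called where limma's p, adjusted by Benjamini-Hochberg, was under 0.05 over all 16778 probe sets tested. In the same comparison 28.5% of all tested probe sets were called, 13.8% as lower and 14.6% as higher. Of these calls 2319 were lower and 2456 higher, against 1763 and 3204 when each array was centred on its median. The median difference was -0.06 over the 16 member probe sets and 0.01 over all tested. The members were chosen with earlier results of these data known, so their counts beside those of all probe sets are a description only. In whole tissue, fewer cells of a type and less RNA per cell cannot be told apart.

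Lgr5 was read by 1 tested probe set. In vehicle mice its level was 5.71 at the lowest, 6.09 at the median and 7.23 at the highest, and after the high DMF dose these values were 4.06, 4.97 and 5.57. Every treated mouse lay below every vehicle mouse, as was the case for 2.24% of all tested probe sets. The fitted difference was -1.33 ± 0.29 (SE), with a 95% confidence interval of -1.91 to -0.76 and a limma adjusted p of 0.000817. At 100 mg/kg DMF the lowest, median and highest levels were 5.69, 6.20 and 6.74, within the vehicle range except for the lowest mouse. The second Lgr5 probe set was too dim to be tested.

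Smoc2 encodes a secreted calcium-binding matrix protein that is enriched in Lgr5-positive cells. Its brighter probe set ranged from 8.97 to 9.32 around a median of 9.14 in vehicle mice, and from 8.19 to 8.96 around 8.55 at the high DMF dose. The groups did not overlap, and the difference was -0.58 ± 0.10 (limma adjusted p = 0.000106). The dimmer Smoc2 probe set also separated the groups, with 6.45 to 7.41 in vehicle and 5.56 to 6.23 at the high dose, a difference of -0.68 ± 0.17 (limma adjusted p = 0.0036). Thus both Smoc2 probe sets gave the same direction and a similar size.

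Tnfrsf19, also called Troy, encodes a receptor of the tumour necrosis factor receptor family found on crypt stem cells. Levels were 6.19, 6.60 and 7.07 at the lowest, median and highest vehicle mouse and 4.99, 6.07 and 6.27 at the high DMF dose. The groups overlapped, and the difference was -0.80 ± 0.26 (limma adjusted p = 0.0175). Replicates 19 and 21 were the lowest mice of the treated group, at 5.13 and 4.99, and the call was lost without either of them, with a highest adjusted p of 0.0583. The same mice had the lowest Lgr5, Smoc2 and Sox9 levels of that group by the brightest probe sets.

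Sox9 encodes a transcription factor of crypt base cells and Paneth cells. Its brightest probe set was at a median of 8.91 in vehicle mice (8.59 to 9.62) and 8.64 at the high DMF dose (8.08 to 9.19), and its difference of -0.38 ± 0.18 was not called (limma adjusted p = 0.103). The second probe set was at 5.29 (5.12 to 5.84) and 5.10 (4.71 to 5.31), and its difference of -0.31 ± 0.12 was called (adjusted p = 0.038). Leaving out 1 array ended this second call in 6 of 15 cases, namely replicates 18, 19, 21 and 22 of the treated group and replicates 1 and 3 of the vehicle group, with a highest adjusted p of 0.113. The third probe set sat at a median of 4.90 in every group and carried no information.

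The remaining 6 genes were not called against vehicle at the high dose. Olfm4, a secreted glycoprotein abundant in crypt base cells, had medians of 11.79 in vehicle and 11.61 at the high DMF dose, a difference of -0.16 with an interval of -0.36 to 0.03. Ascl2, the transcription factor that specifies the Lgr5-positive state, differed by 0.09 (interval -0.20 to 0.37) and -0.06 (interval -0.25 to 0.13) in its pair of tested probe sets. Axin2, the negative feedback regulator of Wnt signalling, was at medians of 10.71 and 10.67, and its difference was -0.07 with an interval of -0.41 to 0.28.

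Msi1 encodes an RNA-binding protein of stem and progenitor cells and differed by 0.03 (interval -0.14 to 0.21). Bmi1, a Polycomb protein, differed by -0.06 (interval -0.19 to 0.08) and 0.09 (interval -0.10 to 0.28) in its 2 probe sets. Hopx, a small homeodomain protein without DNA binding, differed by 0.02 (interval -0.16 to 0.21) and 0.12 (interval -0.18 to 0.42). For all 6 genes the lower bound of the interval lay above the fitted differences of Lgr5, Smoc2 and Tnfrsf19.

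**Figure D1:**
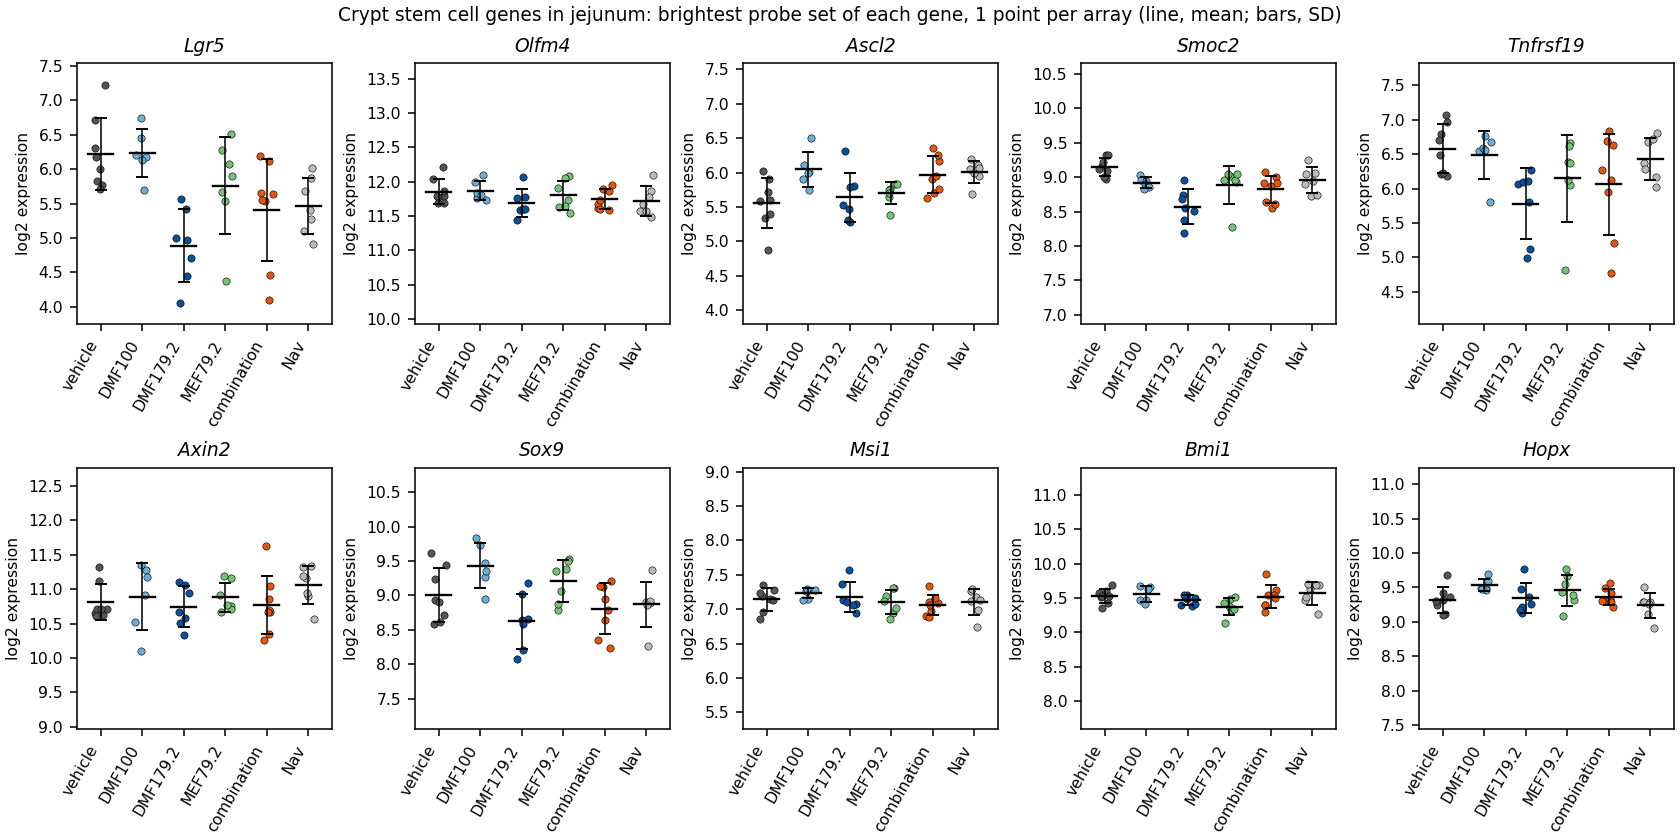
Log2 level of each member's brightest tested probe set in the 43 jejunum arrays, by treatment group, with 1 point for each mouse, a line at the group mean and bars of 1 SD. Lgr5 at 179.2 mg/kg DMF lies between 4.06 and 5.57, below every vehicle mouse, while Axin2, Msi1 and Bmi1 overlap across all groups.

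The 2 DMF doses were set against each other to ask whether the members depended on dose. At 179.2 mg/kg, 3 genes were lower than at 100 mg/kg: Lgr5, Smoc2 and Sox9, with 5 of 16 member probe sets called against 12.1% of all tested probe sets, of which 5.57% were lower. The calls over all probe sets were 934 lower and 1096 higher, against 661 and 1644 with median-centred arrays, and the total of 2030 was between 1019 and 2509 without 1 array. It was lowest without replicate 13 of the low dose, and also moved by over 1.5 times without replicates 14, 15 or 16 of that dose or 19 or 21 of the high dose. Of the 16 probe sets, 15 had a lower point estimate at the higher dose, beside 8117 of all 16778. Against vehicle, 3 of 16 had a lower point estimate at 100 mg/kg and 11 of 16 at 179.2 mg/kg. The contrast between doses thus includes levels above vehicle at the lower dose. A count of 15 of 16 was also found for the combination against 100 mg/kg DMF and for 179.2 mg/kg DMF against the combination, each with 0 called. The 16 come from 10 genes read in the same mice, so they are not separate observations. Between the doses the median difference was -0.26 over the members and 0.01 over all tested. Against vehicle the member median was 0.05 at 100 mg/kg and -0.06 at 179.2 mg/kg.

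Lgr5 was at 39.2% of its level at the lower dose, a difference of -1.35 ± 0.31 (limma adjusted p = 0.00548), and the mice of the 2 doses did not overlap, as was the case for 1.37% of all tested probe sets. The brightest Sox9 probe set was at 9.41 (8.94 to 9.83) at 100 mg/kg and 8.64 at 179.2 mg/kg, a difference of -0.81 ± 0.19 (adjusted p = 0.00752). Its vehicle median lay between these, at 8.91. The second Sox9 probe set differed by -0.59 ± 0.12 (adjusted p = 0.00329).

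Smoc2 differed by -0.35 ± 0.11 and -0.54 ± 0.19 in its brighter and dimmer probe sets (limma adjusted p = 0.0322 and 0.0496). The Smoc2 calls were near the threshold. The brighter was lost in 7 of 13 fits without 1 array and the dimmer in 11 of 13, while the calls of Lgr5 and both Sox9 probe sets held in all 13. Tnfrsf19 differed by -0.71 ± 0.28 and Ascl2 by -0.40 ± 0.15 in its brighter probe set, and neither passed the threshold (adjusted p = 0.0806 and 0.068).

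At 100 mg/kg DMF, 0 of 16 member probe sets were called against vehicle by limma, beside 0.906% of all tested probe sets. At an unadjusted p under 0.05 there were 7, of which 1 was lower, beside 1656 of all 16778, of which 771 were lower. The brighter Ascl2 probe set had medians of 5.59 in vehicle (4.87 to 6.02) and 6.00 at 100 mg/kg (5.75 to 6.51), a difference of 0.49 ± 0.15 that was not called (adjusted p = 0.115). That adjusted p was 0.0479 without vehicle replicate 1. The dimmer Ascl2 probe set differed by 0.20 ± 0.10 (adjusted p = 0.499). Sox9 differed by 0.43 ± 0.19 (adjusted p = 0.404) and the dimmer Hopx probe set by 0.39 (interval 0.08 to 0.70). The Lgr5 difference was 0.02, with an interval of -0.59 to 0.62.

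**Figure D2:**
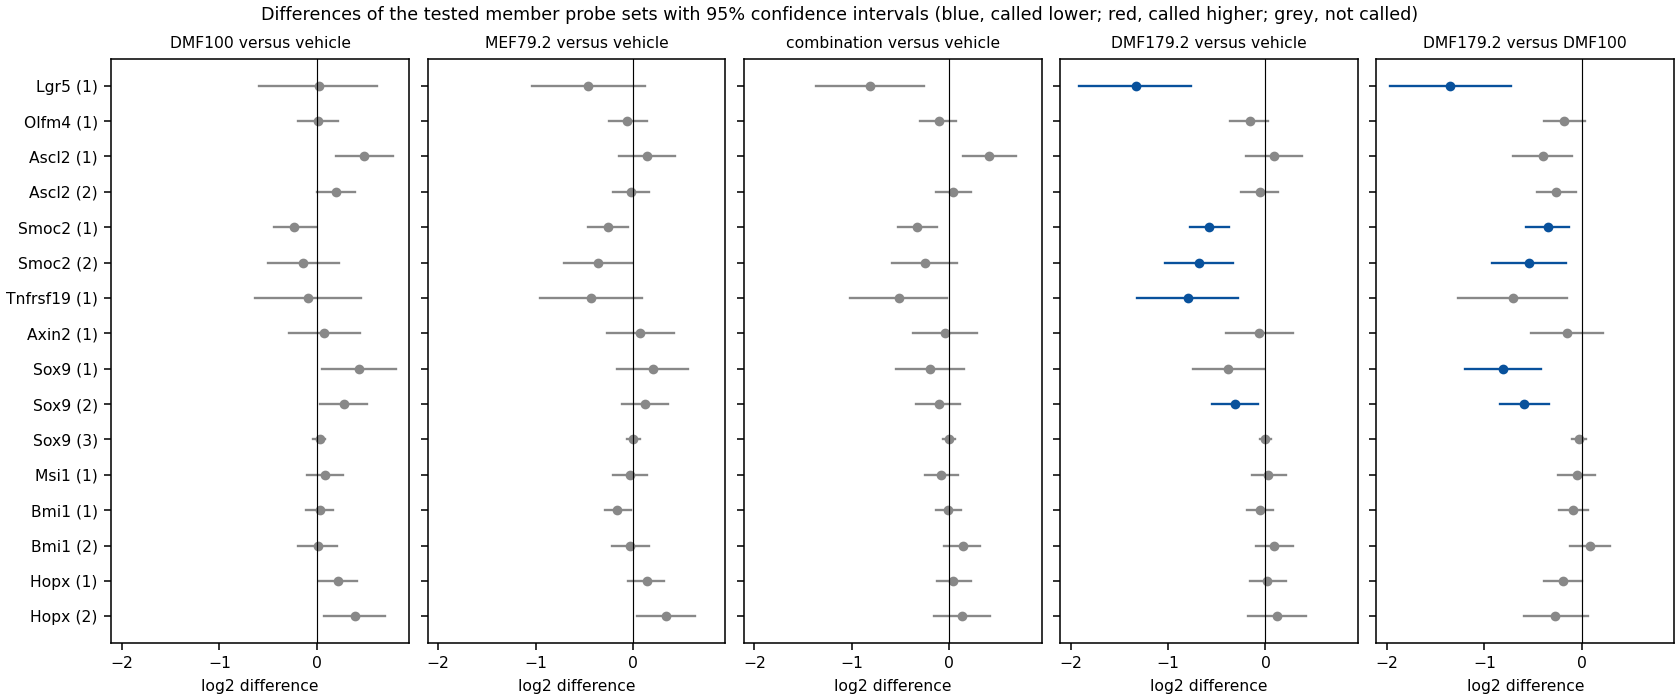
Fitted log2 difference of every tested member probe set, with its 95% confidence interval, in the comparisons of treatment groups with vehicle and of the DMF doses with each other. At 179.2 mg/kg DMF against vehicle the intervals of Lgr5 (-1.91 to -0.76) and the brighter Smoc2 probe set (-0.78 to -0.37) lie wholly below 0.

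MEF salts at 79.2 mg/kg gave no called member: limma called 0 of 16 probe sets, against 0.0596% of all tested. An unadjusted p under 0.05 was found for 4 of 16, 3 of them lower, beside 1953 of all 16778, 1184 of them lower. Lgr5 was at a median of 5.90 (4.37 to 6.51), and its difference from vehicle of -0.46 had an interval of -1.04 to 0.12. The lowest MEF mouse, replicate 29, was the lowest of its group for Lgr5 (4.37), Smoc2 (8.28), Tnfrsf19 (4.82) and Sox9 (8.78). Its array had the lowest mean correlation with its own group among the 43 arrays, 0.9764. In the MEF group all 15 probe sets of smooth muscle and fibroblast markers had point estimates below 0, with a median of -0.49 against -0.36 for DMF at 179.2 mg/kg. Limma called 0 of them, and 13 had an unadjusted p under 0.05, beside the 1953 of all 16778 given above. Of all tested probe sets, 9137 had a point estimate below 0 with MEF salts. The mean level of the 14 genes was 7.73 to 8.73 in MEF mice and 8.54 to 9.07 in vehicle mice. With that level as a covariate, chosen after seeing the data, limma still called 0 members, and the differences from vehicle were -0.16 against -0.46 for Lgr5 and -0.05 against -0.26 for the brighter Smoc2 probe set.

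DMF at 100 mg/kg together with MEF salts, the combination, gave 0 called of 16 member probe sets, beside 3.59% of all tested (279 lower and 324 higher, or 166 and 313 with median-centred arrays). Among the members 4 had an unadjusted p under 0.05, 3 of them lower, beside 3707 of all 16778, 1940 of them lower. The 603 calls over all probe sets were between 180, without combination replicate 36, and 1438, without replicate 39. They also moved by over 1.5 times without combination replicates 33, 34 or 35 or vehicle replicates 1, 2, 3 or 6. Lgr5 lay at 4.10, 5.59 and 6.20 at the lowest, median and highest mouse. Replicates 33 and 36 were the lowest, at 4.46 and 4.10, and the other 6 mice were at 5.53 or above. The Lgr5 difference from vehicle was -0.81 ± 0.28 and missed the threshold (limma adjusted p = 0.0833). So did the brighter probe sets of Smoc2 at -0.33 ± 0.10 (adjusted p = 0.0526) and Ascl2 at 0.41 ± 0.13 (adjusted p = 0.0732). The dimmer ones differed by -0.25 ± 0.17 for Smoc2 (adjusted p = 0.375) and 0.04 ± 0.09 for Ascl2 (adjusted p = 0.835). Lgr5 and the brighter Smoc2 probe set were both called without combination replicate 32 and without replicate 39, and that Smoc2 probe set without vehicle replicate 4. Their lowest adjusted p were 0.0371 and 0.0323.

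Adding MEF salts to DMF at 100 mg/kg was compared directly, since both groups had the same DMF dose. limma called 0 of 16 member probe sets, beside 0.244% of all tested. An unadjusted p under 0.05 was found for 3 members, beside 1811 of all 16778. Lgr5 was lower by a difference of -0.83 with an interval of -1.43 to -0.23 (adjusted p = 0.265), and Sox9 by -0.63 with an interval of -1.01 to -0.25 (adjusted p = 0.155). DMF at 179.2 mg/kg was also set against the combination, whose total dose in mg/kg is equal. limma called 0 member probe sets and 0 of all 16778 (up to 9 without 1 array), with 3 members and 1955 of all at an unadjusted p under 0.05. Lgr5 differed by -0.52 (interval -1.10 to 0.06) and the brighter Smoc2 probe set by -0.25 (interval -0.46 to -0.04). These intervals do not show that the treatments acted alike. DMF and MEF salts alone were given at different doses and were not compared.

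The group labelled Nav differed from vehicle in 10.6% of all tested probe sets, 5.12% as higher, and in 1 of 16 member probe sets. The brighter Ascl2 probe set rose, from a median of 5.59 in vehicle to 6.05 (5.69 to 6.20), a difference of 0.45 ± 0.14 (limma adjusted p = 0.0329). The dimmer Ascl2 probe set differed by 0.05 ± 0.09 and was not called (adjusted p = 0.765). Lgr5 was at 4.92, 5.40 and 6.02, a difference from vehicle of -0.75 ± 0.29 (adjusted p = 0.0772). No member was called without Nav replicate 43, 44, 45 or 47 or vehicle replicate 2, 3, 5 or 6, and 2 were called without Nav replicate 40. When the Nav mice took the place of the vehicle mice, only the brighter Smoc2 probe set was called at 179.2 mg/kg DMF, at -0.38 ± 0.11 (adjusted p = 0.0245). Lgr5 was then at -0.58 ± 0.30 (adjusted p = 0.236), and was not called.

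Other genes of the crypt were followed at 179.2 mg/kg DMF against vehicle, from lists of published functions. These lists were chosen with earlier results of these data known, so their counts beside the background are a description only. Among other crypt base genes, 10 of 31 tested probe sets fell and 1 rose, with a median difference of -0.14. Slc12a2, a sodium, potassium and chloride cotransporter, fell by 1.27 ± 0.26 in 1 probe set (limma adjusted p = 0.000648). Cdk6, a cell cycle kinase, fell by 0.60, Prom1, a membrane protein of progenitor cells, by 0.28, and Fstl1, a secreted glycoprotein, by 0.75. The 1 probe set that rose belonged to Sp5, a Wnt target gene, at 0.62 ± 0.20 (adjusted p = 0.0165), which is named because it was the only riser.

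Of 27 tested probe sets of Wnt and R-spondin ligands, receptors and regulators, 9 fell and 0 rose, with a median of -0.20. Fzd7, a Wnt receptor of Lgr5-positive cells, fell by 0.60 ± 0.11, and Dkk3, a secreted protein of the Dickkopf family, by 0.99 ± 0.18 (limma adjusted p = 1e-04 for each). Ctnnb1, which encodes beta-catenin, fell by 0.20, and Apc, part of the complex that degrades beta-catenin, fell by 0.27. The genes that fell included both activating and inhibiting parts of the pathway.

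Among Notch, BMP and EGF signals, 5 of 18 tested probe sets fell and 0 rose. Id3 and Id1, which BMP signals induce, fell by 0.38 and 0.55, the ligand Bmp2 by 1.07, and the BMP antagonist Grem1 by 0.85. Of 23 tested cell cycle probe sets 4 fell and 0 rose: Ccna2 by 0.31, Plk1 by 0.40, Mki67 by 0.26 and Cdc20 by 0.40. Of 4 Paneth cell probe sets 2 fell, Mmp7 by 0.83 and Defa21 by 0.41. The shares of all tested probe sets called lower (13.8%) and higher (14.6%) are the background for these counts.

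Markers of mature cells moved in both directions, as did all tested probe sets, of which 13.8% were called lower and 14.6% higher. Of 17 enterocyte probe sets 3 rose and 4 fell, of 12 goblet cell probe sets 3 fell and 0 rose, of 11 enteroendocrine probe sets 3 rose and 1 fell, and of 11 tuft cell probe sets 2 rose and 0 fell. Without 1 array the tuft cell count was between 0 and 2, changed in 9 of 15 cases (treated replicates 18, 20, 21 or 22, or vehicle replicates 1, 2, 3, 6 or 8), and the goblet cell count was between 1 and 3 (lower without treated replicates 18, 19 or 21 or vehicle replicate 3). Among 15 leukocyte probe sets 1 fell and 0 rose (2 called without treated replicate 24). Limma called 0 of 5 probe sets of enteric neurons and glia (1 without treated replicates 17 or 20). Of these 5, 1 had an unadjusted p under 0.05, beside 6785 of all 16778. The 1 tested pancreatic probe set rose. Of 17 probe sets of NRF2 targets, 13 rose and 2 fell.

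Between the DMF doses, the calls in these lists at the high dose against the low were 1 of 31 for other crypt base genes, 2 of 27 for the Wnt list, 4 of 18 for Notch, BMP and EGF signals and 0 of 23 for the cell cycle, all lower. Over all tested probe sets 12.1% were called in that comparison and 5.57% were lower. For the cell cycle list, 2 of 23 had an unadjusted p under 0.05 in limma, beside 4942 of all 16778. At 100 mg/kg against vehicle limma called 0 probe sets in these 4 lists, with 4, 4, 7 and 0 at an unadjusted p under 0.05. Over all tested probe sets 0.906% were called at that dose, and 1656 of 16778 had an unadjusted p under 0.05. The NRF2 target Nqo1 was at medians of 8.32 in vehicle, 9.76 at 100 mg/kg DMF, 10.31 at 179.2 mg/kg DMF, 9.04 with MEF salts, 9.88 with the combination and 8.20 in Nav mice.

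**Figure D3:**
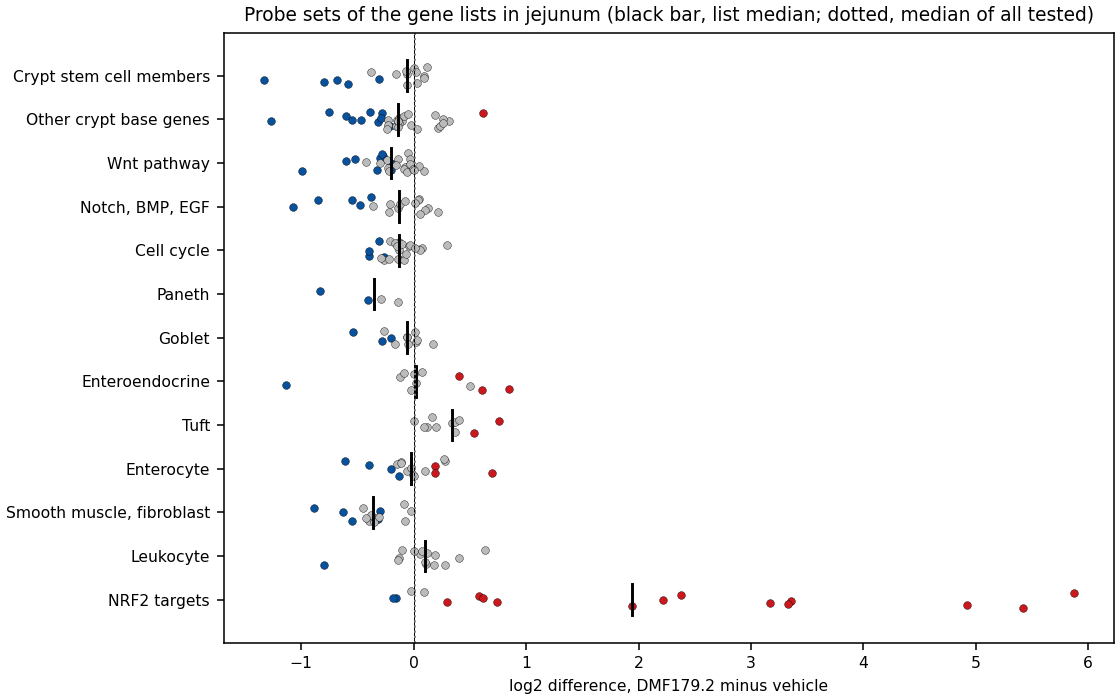
Fitted log2 differences between DMF at 179.2 mg/kg and vehicle for the tested probe sets of the members and of 12 other gene lists, 1 point for each probe set, with the list median. The member median is -0.06, the Wnt list median -0.20 and the median of the NRF2 targets 1.94. Blue points were called lower, red higher and grey not called.

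Markers of other cells and genes high in the ileum moved with the high DMF dose, and some with other treatments. The labels do not give the gut position sampled, and whether it differed between groups was not tested. The mean level of 5 ileal genes ranged from 8.70 to 11.39 around a median of 10.39 in vehicle mice and from 6.55 to 11.21 around 7.48 at 179.2 mg/kg DMF, and 3 of 5 tested ileal probe sets fell. Fabp6 fell by 5.23 ± 1.64 and Fgf15, an ileal hormone, by 3.54 ± 1.19. Smooth muscle and fibroblast markers had 5 of 15 probe sets called lower and all 15 point estimates below 0, and the mean level of the 14 genes ranged from 8.54 to 9.07 in vehicle and 7.97 to 8.72 at the high dose. Without 1 array the count of 5 was between 2 and 8 (treated replicates 17 or 19 or vehicle replicate 3), and the ileal count of 3 between 2 and 5 (treated replicate 24 or vehicle replicate 7). In neither list was a gene at the lowest array value in all arrays. At the high dose against vehicle, 13.8% of all tested probe sets were called lower, and 8155 of 16778 had a point estimate below 0.

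With the ileal level as a covariate, the Lgr5 difference at 179.2 mg/kg DMF was -1.12 (limma adjusted p = 0.0115). With the smooth muscle and fibroblast level as a covariate it was -1.10 (adjusted p = 0.00716), and with the hybridisation controls -1.59 (adjusted p = 0.0178). The brighter Smoc2 probe set was called under each of these too. Tnfrsf19 was not called under any of the 3, at -0.53 (adjusted p = 0.165), -0.45 (adjusted p = 0.174) and -1.08 (adjusted p = 0.0637). The second Sox9 probe set was not called under them either. Since the hybridisation controls of the vehicle and high-dose arrays did not overlap, that covariate cannot be cleanly separated from treatment. The mouse of the high DMF dose with the highest ileal level, replicate 24 at 11.21, had the highest Smoc2 (8.96), Tnfrsf19 (6.27) and Sox9 (9.19) levels of its group, and its Lgr5 level was 5.01. The reverse was seen with MEF salts. Replicate 29 had the highest ileal level of that group, 11.27, and its lowest Lgr5, Smoc2, Tnfrsf19 and Sox9 levels by the brightest probe sets. In Nav mice the ileal level had a median of 10.76.

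Some members also varied together with Lgr5 between mice of the same group. After the group means were subtracted, Lgr5 was correlated over the 43 arrays with Sox9 (Pearson r = 0.666, Spearman rho = 0.66), Tnfrsf19 (r = 0.639, rho = 0.608), Smoc2 (r = 0.571, rho = 0.438) and Hopx (r = 0.521, rho = 0.512). In permutation tests within groups over 9 relations, two-sided, the raw p of r were 1e-05, 0.00044, 0.00094 and 0.00077, and those of rho 1e-05, 0.00016, 0.00663 and 0.00101. The value 1e-05 is the smallest that 100000 permutations can give. Adjusted over the 9 relations, the p of r were 9e-05, 0.00198, 0.00212 and 0.00212, and those of rho 9e-05, 0.00072, 0.0149 and 0.00303.

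Without the 2 arrays farthest in Lgr5, r was 0.615 for Sox9, 0.498 for Tnfrsf19, 0.393 for Smoc2 and 0.42 for Hopx. Olfm4 gave r = 0.356 and rho = 0.352, with permutation p of 0.0267 and 0.0301, adjusted to 0.0481 and 0.0542, and r was 0.392 without those arrays. Msi1, Ascl2, Bmi1 and Axin2 did not pass, with r of 0.335, 0.222, 0.175 and 0.0669 and adjusted permutation p of 0.0624, 0.222, 0.356 and 0.691. Each array reads a mixture of cells, and the gut position sampled may differ between mice. The part of either in these relations was not tested. Genes outside the members reached a higher r with Lgr5, up to 0.828 for Rgmb. The share of all tested probe sets that reached the members' values was not counted.

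**Figure D4:**
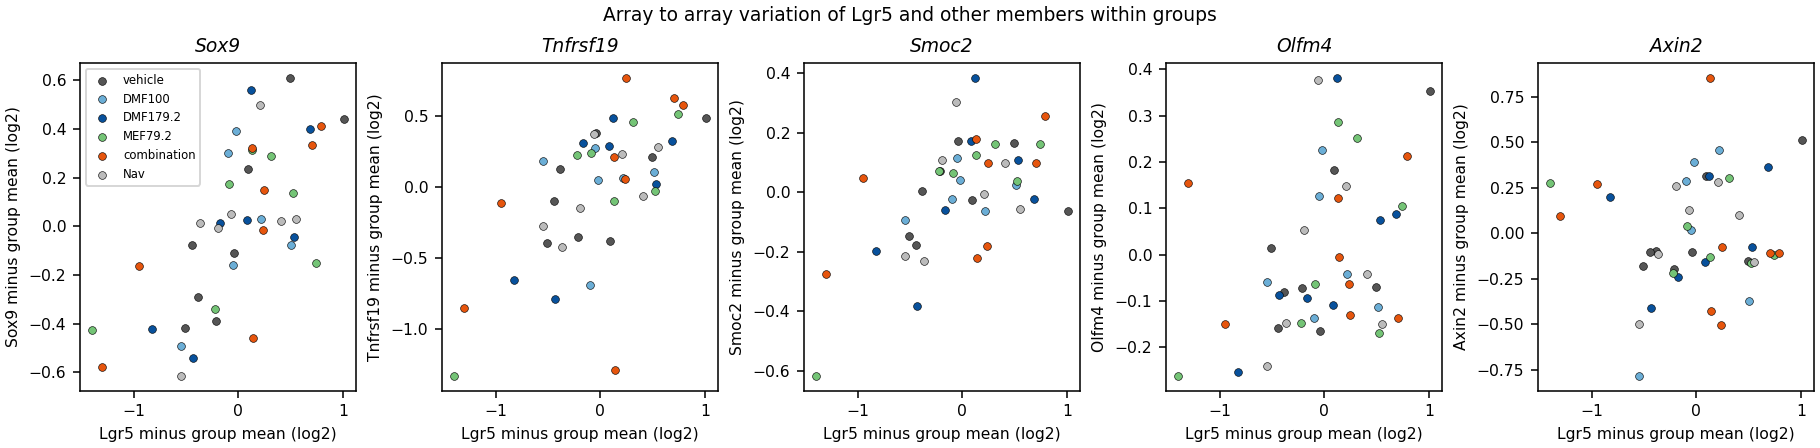
Each panel plots the log2 level of a member minus its group mean against the same quantity for Lgr5, with 1 point for each of 43 jejunum arrays, coloured by group. The points rise together for Sox9 (r = 0.666), Tnfrsf19 (r = 0.639) and Smoc2 (r = 0.571) and show no such trend for Axin2 (r = 0.0669).

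The tested probe sets of other genes most like Lgr5 in this within-group variation were those of Rgmb (r = 0.828), Mbnl1 (0.824), Igf1r (0.815), Samd5 (0.805) and Arhgef12 (0.803). Those most like Olfm4 were Hmgb2 (0.821), Mib1 (0.809), Prkci (0.801), Nucks1 (0.781) and Lbr (0.777). The 2 sets had no gene in common. Lists this short, picked from all tested probe sets, can easily share none, so no conclusion about Lgr5 and Olfm4 is drawn. Rgmb, a BMP co-receptor, had 2 probe sets called lower at the high DMF dose against vehicle, by 0.32 ± 0.12 and 0.47 ± 0.18 (limma adjusted p = 0.04 and 0.0406). Both were near the threshold, and 13.8% of all tested probe sets were called lower in that comparison.

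The place of each member among the single-gene probe sets of vehicle mice was set beside that in the other 6 tissues, whose arrays were normalised apart. Olfm4 stood at the 96.7th percentile in jejunum and between the 13.9th and 50.6th elsewhere. Lgr5 was at the 53.9th in jejunum and between the 13.9th and 26.1st elsewhere, and Ascl2 at the 48.6th and between the 13.9th and 33.3rd. Sox9 was at the 78.9th in jejunum and the 77.2nd in brain, and Tnfrsf19 at the 56.9th and 86.1st. Smoc2 was at the 80.1st in jejunum and the 91.5th in spleen. Bmi1 was at the 83.2nd percentile in jejunum and at the 85th or above in the other 6 tissues.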

How the data were processed

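Jejunum RNA was measured on Affymetrix arrays. The deposited values are log2 expression, and the submitters' processing notes name GCRMA, RMA, limma 3.4.5 and R 2.11.1 as the authors' tools, with no role for each. How background was handled is not stated there. Groups were taken from sample titles.

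Of 45141 probe sets, 28898 carry 1 gene symbol, 551 several and 15692 were unnamed here. The 16778 single-symbol probe sets above the jejunum median (4.89) in at least 5 arrays were tested, each probe set by itself. limma 3.58.1 (R 4.3.3, with the data.table package, version 1.17.8) fitted 6 group means over 43 arrays, and 8 comparisons were made, with Benjamini-Hochberg adjustment over all tested probe sets in each. The procedure was tested on simulated data. Promoter sequences are from RefSeq (GRCm38.p6). All member probe sets are reported. Other genes named are up to 4 called per list by adjusted p, and the 5 nearest to Lgr5 and Olfm4.

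The members and the 15 gene lists were chosen with earlier results of these data known. Mice are separate animals by their title numbers. Alternatives covered the filter, normalization, probe sets per gene, arrays fitted, array weights, covariates, the reference group and leaving out each array.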

Additional observations from a re-analysis of the deposited data

Results flagged for a closer look

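In 13 of 96 combinations of member probe set and group, 1 array stood apart from the rest of its group by Dixon's criterion, where chance gives about 1 in 20. MEF replicate 29 was low for 3 probe sets: the brighter Smoc2 at 8.28, the dimmer Smoc2 at 5.39 and Tnfrsf19 at 4.82. The dimmer Smoc2 probe set was also high in vehicle replicate 1 (7.41) and low in replicate 19 of the 179.2 mg/kg DMF group (5.56). Tnfrsf19 was low in replicate 15 of the 100 mg/kg DMF group (5.81).

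Ascl2 was low in MEF replicate 26 (5.38) by its brighter probe set, and by the dimmer it was high in replicate 10 of the 100 mg/kg DMF group (5.68) and low in Nav replicate 46 (4.80). The third Sox9 probe set, nearly constant at 4.90, stood apart at 5.05 in replicate 16 of the 100 mg/kg DMF group, 4.91 in MEF replicate 26, 4.92 in combination replicate 34 and 4.64 in Nav replicate 43.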

How the results depend on the processing

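No paired analysis was possible because the groups compared within jejunum share no replicate numbers. In the comparisons with vehicle of the 4 treatments and in that of the DMF doses, no called member difference changed sign under any alternative. The ileal and the smooth muscle and fibroblast covariates were chosen after seeing the data. Counts of called member probe sets moved as follows, and beyond the smaller number of probe sets with 1 per gene the cause was not tested. For DMF at 179.2 mg/kg against vehicle (5) the count was 3 with 1 probe set per gene, 3 with the ileal covariate, 3 with the smooth muscle and fibroblast covariate, 2 with the hybridisation controls and 1 with Nav in place of vehicle, and 3 to 6 without 1 array. Between the DMF doses (5) it was 3 without the filter, with 1 probe set per gene and with either marker covariate, and 3 to 6 without 1 array, with 3 reached without replicates 13, 14 or 15 of the low dose or 18, 19 or 21 of the high. For DMF at 100 mg/kg (0) it was 1 with array weights and 1 with the ileal covariate, and 0 to 1 without 1 array. For MEF salts (0) it was 1 with Nav in place of vehicle and 0 without any 1 array. For the combination (0) it was 2 with array weights, 1 with the ileal covariate and 0 to 2 without 1 array. For Nav against vehicle (1) it was 0 without the filter, 0 with 1 probe set per gene, 0 with the hybridisation controls, 2 with only those groups in the fit and 0 to 2 without 1 array. Both comparisons of the combination with a DMF group stayed at 0. Over all probe sets, the 4775 called for DMF at 179.2 mg/kg became 1523 with the hybridisation controls, 1006 with Nav as reference and 2969 with 1 probe set per gene, the 152 at 100 mg/kg became 694 with array weights, and the 1782 of Nav became 0 with the hybridisation controls. The 603 of the combination became 66 with the controls, 129 with Nav as reference and 947 with the smooth muscle and fibroblast covariate, the 10 of MEF salts became 256 with array weights and 2719 with Nav as reference, the 2030 between the DMF doses became 4051 with array weights, and the 41 of the combination against DMF alone ranged from 4 to 135. For DMF at 179.2 mg/kg against vehicle, calls among other crypt base genes (11) were between 2 and 13, in the Wnt list (9) between 0 and 10, among Notch, BMP and EGF signals (5) between 3 and 7, and in the cell cycle list (4) between 0 and 6, settings without 1 array included. Without 1 array the calls over all probe sets were 3801 to 5005 for DMF at 179.2 mg/kg, 95 to 169 for DMF at 100 mg/kg, 3 to 15 for MEF salts, 180 to 1438 for the combination, 1019 to 2509 between the DMF doses and 709 to 2325 for Nav. Low signal kept 7 member probe sets out of the tests.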
